A study of Mus musculus with 126 samples.

Results

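Piwil1, Piwil2, Piwil4, Mov10l1, Tdrd9, Asz1, Mael, Tdrd1, Tdrd5 and Tdrkh are 10 genes of the piRNA pathway, the small RNA defence of the germline against transposons, and their transcripts were followed in mouse embryonic stem cells with and without DNA methylation. They were chosen by symbol, as listed genes of this pathway, from the 23420 genes of the deposited RNA-seq count table, and all 10 were found. The wild type was the J1 line. Triple knockout (TKO) cells carried Dnmt1-/-, Dnmt3a-/- and Dnmt3b-/-, and so lack the 3 enzymes that set and maintain DNA methylation. Cells of either genotype received Trichostatin A (TSA), an inhibitor of histone deacetylases, at a labelled 5 ng/µl for 36 h, or DMSO, its solvent, at 0.0033% as the control. All 4 groups were grown on gelatin in serum with leukaemia inhibitory factor, and each had 2 libraries. The labels do not say whether the libraries of a group came from separate cultures, so p-values measure the spread between these libraries, which may be technical.

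PIWI proteins bind piRNAs, which guide them to transposon transcripts in the cytoplasm and to transposon loci in the nucleus. Around them stand RNA helicases that supply or release the RNA, and proteins with tudor domains that hold PIWI proteins through methylated arginines in granules beside the mitochondria. In male germ cells the nuclear arm of the pathway directs DNA methylation to transposons. Several genes of the pathway have promoters rich in CpG that are methylated in somatic cells and unmethylated in germ cells.

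Total counts ran from 13280631 to 15542527 per library, and 3 counts, the floor used here, amount to 0.193 to 0.226 CPM, the count scaled to a common library total. Levels below are normalised CPM, in which TMM factors adjust the library totals. Transcripts of the targeted genes were lower in TKO, with mean normalised CPM in DMSO of 446 against 130 for Dnmt1, 211 against 26.4 for Dnmt3a and 592 against 44.9 for Dnmt3b. TKO libraries still held reads of all 3, and counts per exon are not given. All 9 listed stem cell markers, Pou5f1 and Nanog among them, were above 3 counts in every group. Calls are adjusted p-values below 0.05 in edgeR's quasi-likelihood test over the 15822 genes that passed a filter on low counts, and adjusted p-values below are from this test unless another is named. All 10 genes passed the filter. In CPM without the TMM factors, Asz1 lay below the filter's level of 0.682 in both wild type DMSO libraries. Piwil1 and Tdrd9 did so in 1 of them, so Asz1, Piwil1 and Tdrd9 passed through the other groups. Errors of log2 fold changes are approximate standard errors (SE).

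TKO cells differed from wild type at most of the 10 genes, in both directions. In DMSO, 5 were higher in TKO than in wild type (Asz1, Tdrd9, Piwil4, Mov10l1 and Piwil2), 2 were lower (Tdrd1 and Tdrd5) and 3 were not called (Piwil1, Mael and Tdrkh). The calls of Piwil4 and Tdrd5 were lost when some single libraries were left out. Over all genes tested 20.4% were called in this comparison, 9.62% higher and 10.7% lower. The median log2 fold change was 1.20 over the 10 genes and -0.01 over all genes. In TSA, 5 were higher in TKO (Asz1, Tdrd9, Piwil2, Mov10l1 and Tdrkh), 1 was lower (Tdrd1) and 4 were not called, where 18.4% of all genes were called, 10% higher and 8.38% lower. The count called there fell from 6 to 3 without wild type TSA replicate 1. The median of the 10 genes in TSA was 0.81.

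TSA raised several of the 10 genes in both genotypes and lowered none by the test used. In wild type, 6 of the 10 genes rose with TSA (Asz1, Mael, Tdrd5, Tdrkh, Piwil2 and Mov10l1) and none fell, where 52.8% of all genes were called, 27% higher and 25.9% lower. The count of 6 fell to 3 without wild type DMSO replicate 1 or wild type TSA replicate 2. In TKO, 5 rose (Tdrkh, Tdrd5, Asz1, Mael and Piwil2) and none fell, where 58.7% of all genes were called, 30.8% higher and 27.9% lower. The number called is near the background in both genotypes. When only total counts scaled the libraries, the median log2 fold change of all genes moved from 0.01 to 0.22 in wild type and from 0.04 to 0.19 in TKO, so directions with TSA are relative to the TMM scaling. Both changes together, TKO TSA against wild type DMSO, gave 8 genes higher, 1 lower (Tdrd1) and 1 not called (Piwil1), where 61.9% of all genes were called, 31.7% higher and 30.2% lower. Of these calls, that of Piwil4 was lost without wild type DMSO replicate 1 (1.01, adjusted p 0.0635). These comparisons share libraries and are not independent of each other.

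**Figure D1:**
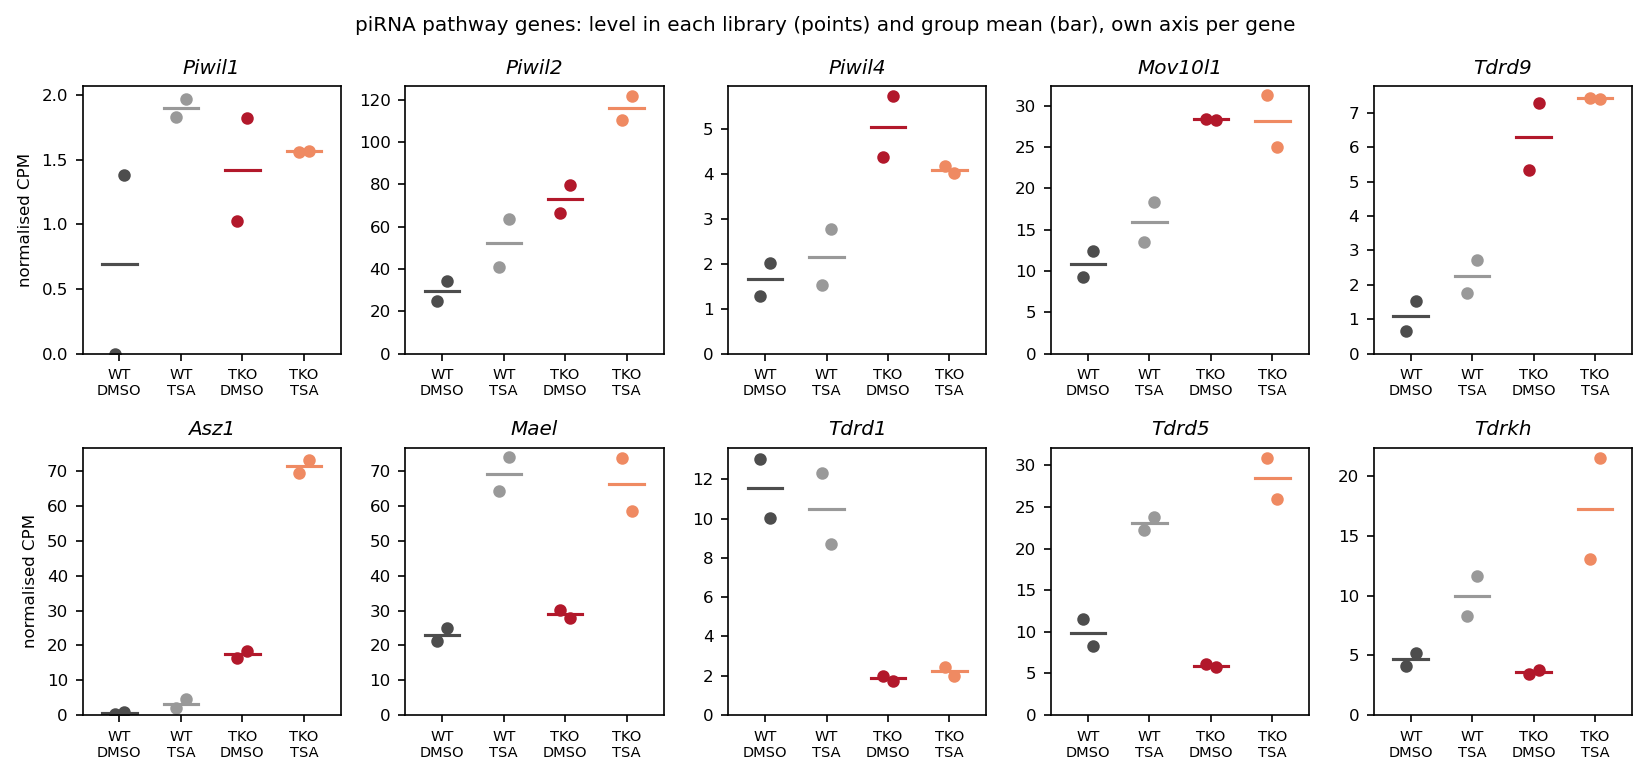
Normalised CPM of the 10 genes in each library (points) with the mean of each group (horizontal bars), on a linear axis from 0 that differs between genes, for wild type (WT) and TKO cells in DMSO and TSA. Asz1 climbed from under 1 CPM in wild type DMSO to over 69 CPM in TKO TSA, while Tdrd1 was at 8.69 CPM or more in each wild type library and at 2.43 CPM or less in each TKO library.

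Compared per length of transcript, in RPKM, which divides the normalised CPM by the exon length in kilobases, the 10 genes spanned a wide range of levels. In wild type DMSO the order of mean RPKM was Mael (14.9), Piwil2 (6.02), Tdrd5 (2.88), Mov10l1 (2.68), Tdrd1 (2.12), Tdrkh (1.76), Piwil4 (0.627), Asz1 (0.333), Tdrd9 (0.227) and Piwil1 (0.175). The libraries of Tdrd5 and Mov10l1, Mov10l1 and Tdrd1, Tdrd1 and Tdrkh, Asz1 and Tdrd9, and Tdrd9 and Piwil1 overlapped, so these neighbours did not differ beyond their spread. In TKO TSA the order of mean RPKM was Mael (42.9), Asz1 (41.0), Piwil2 (23.7), Tdrd5 (8.26), Mov10l1 (6.95), Tdrkh (6.52), Piwil4 (1.56), Tdrd9 (1.54), Tdrd1 (0.408) and Piwil1 (0.396). There the libraries of Mael and Asz1 overlapped, as did those of Tdrd5, Mov10l1 and Tdrkh, of Piwil4 and Tdrd9, and of Tdrd1 and Piwil1. Asz1 thus went from the 8th to the 2nd place of the 10, and from percentile 12.0 to percentile 85.9 of the RPKM of all tested genes. In bulk samples, a change in the number of cells that express a gene and a change in the RNA per cell cannot be told apart.

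Of the 3 PIWI genes, Piwil2 was the main transcript and rose with each change, Piwil4 was low and higher in TKO, and Piwil1 was under 2 normalised CPM in every library. Piwil2 (chromosome 14, 70372480 to 70429094, minus strand, 23 exons) encodes the PIWI protein MILI, which takes up piRNAs in the cytoplasm. Piwil2 stood in DMSO at 24.7 and 34.5 normalised CPM in wild type and at 66.4 and 79.8 in TKO, and with TSA at 41.0 and 63.5 in wild type and at 111 and 122 in TKO. The libraries of no 2 groups overlapped, and the order from low to high was wild type DMSO, wild type with TSA, TKO DMSO and TKO with TSA. For Piwil2, TKO against wild type gave a log2 fold change of 1.31 ± 0.20 (SE) in DMSO and 1.16 ± 0.20 in TSA (adjusted p 0.00139 and 0.00267). That of TSA was 0.82 ± 0.21 in wild type and 0.67 ± 0.19 in TKO (adjusted p 0.00638 and 0.0114). Both TSA calls were lost when 1 library was left out. In wild type the value was 0.59 without DMSO replicate 1 (adjusted p 0.0576) and 0.47 without TSA replicate 2 (adjusted p 0.0698), and in TKO it was 0.54 without DMSO replicate 1 (adjusted p 0.102) and 0.60 without TSA replicate 2 (adjusted p 0.0562).

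Piwil4 (chromosome 9, 14702358 to 14740733, minus strand, 19 exons) encodes MIWI2, the nuclear PIWI protein of fetal male germ cells. The level of Piwil4 in DMSO was 1.28 and 2.03 normalised CPM in wild type and 4.38 and 5.75 in TKO, and with TSA 1.53 and 2.78 in wild type and 4.19 and 4.02 in TKO. All 4 TKO libraries were above all 4 wild type libraries, whereas the treatments overlapped within wild type. TKO against wild type in DMSO gave a log2 fold change of 1.62 ± 0.35 (SE, adjusted p 0.00772). The call was lost without wild type DMSO replicate 1 (1.30, adjusted p 0.0746) or TKO DMSO replicate 2 (1.41, adjusted p 0.0661). In TSA the log2 fold change was 0.94 ± 0.33 and was not called (adjusted p 0.0722), although it passed without the filter on low counts (adjusted p 0.0496), with the replicate number as a block (adjusted p 0.0221) and without wild type TSA replicate 2 (1.42, adjusted p 0.0375). Piwil1 (chromosome 5, 128736246 to 128755474, plus strand, 22 exons) encodes MIWI, the PIWI protein of later spermatogenesis. It had 0 and 17 counts in the wild type DMSO libraries, or 0 and 1.38 normalised CPM, against 1.03 and 1.82 in TKO DMSO, 1.83 and 1.97 for TSA in wild type, and 1.56 and 1.57 in TKO TSA. Piwil1 was called in no comparison, and its wild type DMSO libraries lay farther apart than any group means. Without wild type DMSO replicate 2, the other library of that group has no count, and the fitted log2 fold changes of 7.41 to 7.82 against it pass the test (adjusted p 0.000834 to 0.00390) but their size depends on the prior count of the fit.

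Both helicase genes were higher in TKO than in wild type, and of their TSA responses only that of Mov10l1 in wild type was called. Mov10l1 (chromosome 15, 88982994 to 89055152, plus strand, 27 exons) encodes the helicase that binds piRNA precursor transcripts. Mov10l1 stood in DMSO at 9.27 and 12.5 normalised CPM in wild type and at 28.4 and 28.3 in TKO, and with TSA at 13.6 and 18.4 in wild type and at 31.3 and 25.0 in TKO. All TKO libraries were above all wild type libraries, and the treatments overlapped within TKO. For Mov10l1, TKO against wild type gave a log2 fold change of 1.39 ± 0.20 (SE) in DMSO and 0.82 ± 0.19 in TSA (adjusted p 0.000768 and 0.0122). The second call was lost without wild type TSA replicate 1 (0.61, adjusted p 0.121) or TKO TSA replicate 1 (0.65, adjusted p 0.0781). With TSA in wild type it was 0.56 ± 0.20 (adjusted p 0.0357), a call that 5 of 15 alternatives removed, among them those without wild type DMSO replicate 1 (0.35, adjusted p 0.221) without wild type TSA replicate 2 (0.32, adjusted p 0.279), and without TKO DMSO replicate 1 or 2 (0.55 in both, adjusted p 0.0539 and 0.0533). With TSA in TKO the value was -0.01, with a 95% interval of -0.41 to 0.39, and its sign turned with total counts (0.13) and upper quartile scaling (0.062).

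Tdrd9 (chromosome 12, 111971559 to 112068854, plus strand, 36 exons) encodes a helicase with a tudor domain that works with MIWI2 in transposon silencing. The level of Tdrd9 in DMSO was 0.642 and 1.54 normalised CPM in wild type and 5.33 and 7.27 in TKO, and with TSA 1.77 and 2.72 in wild type and 7.44 and 7.41 in TKO. Every TKO library was above every wild type library. For Tdrd9, TKO against wild type gave a log2 fold change of 2.55 ± 0.37 (SE) in DMSO, where the means differed 5.78-fold, and 1.73 ± 0.32 in TSA (adjusted p 0.000956 and 0.00441). The first was 3.28 without wild type DMSO replicate 2 and 2.01 without wild type DMSO replicate 1. The second was 1.45 without wild type TSA replicate 1 (adjusted p 0.0514). TSA in wild type gave 1.05 ± 0.41 and just missed the threshold (adjusted p 0.0505), and 7 of 15 alternatives put it past it (adjusted p from 0.0152 to 0.330 over all 15), among them those without wild type DMSO replicate 2 (1.78, adjusted p 0.0152) and wild type TSA replicate 1 (1.33, adjusted p 0.0356). TSA in TKO gave 0.24 ± 0.29, with a 95% interval of -0.40 to 0.87. The promoter windows of both helicase genes, taken from RefSeq (build GRCm38.p6, chr15:88982744-88983043 for Mov10l1 and chr12:111971309-111971608 for Tdrd9, both plus strand), run from 250 bases before the start site to 50 after it. They are shown because both hold the 6 letter E-box CACGTG, which is in capitals.
Mov10l1: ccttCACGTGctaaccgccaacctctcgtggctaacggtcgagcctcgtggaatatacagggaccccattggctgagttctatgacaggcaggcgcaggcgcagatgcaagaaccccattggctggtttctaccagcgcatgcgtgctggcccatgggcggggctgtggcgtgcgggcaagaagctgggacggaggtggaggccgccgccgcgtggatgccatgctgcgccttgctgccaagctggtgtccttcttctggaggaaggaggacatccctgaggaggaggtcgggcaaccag
Tdrd9: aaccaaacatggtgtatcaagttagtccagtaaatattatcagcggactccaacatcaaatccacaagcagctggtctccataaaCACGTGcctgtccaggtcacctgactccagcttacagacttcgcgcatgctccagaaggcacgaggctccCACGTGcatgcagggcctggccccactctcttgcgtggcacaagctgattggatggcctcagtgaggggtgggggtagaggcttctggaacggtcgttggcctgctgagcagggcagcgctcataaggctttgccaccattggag
The Mov10l1 window has 1 such match and 20 CpG, and the Tdrd9 window has 2 matches and 10 CpG.

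Asz1 had the widest range of the 10 genes as a fold between group means and rose with both changes, whereas its fellow component of germ granules Mael rose with TSA and was not called for the genotype. Asz1 (chromosome 6, 18050964 to 18109061, minus strand, 13 exons) encodes GASZ, a scaffold at the mitochondrial surface in germ cells. Asz1 stood in DMSO at 0.428 and 0.729 normalised CPM in wild type and at 16.3 and 18.5 in TKO, and with TSA at 1.95 and 4.55 in wild type and at 69.6 and 73.2 in TKO. No 2 groups overlapped, and the lowest TKO library was above the highest wild type library. For Asz1, TKO against wild type gave a log2 fold change of 4.91 ± 0.37 (SE) in DMSO, a 30.1-fold difference of means, and 4.47 ± 0.26 in TSA, a 21.9-fold difference (adjusted p 1.42e-05 and 3.26e-06). TSA gave 2.48 ± 0.46 in wild type and 2.04 ± 0.22 in TKO (adjusted p 0.00120 and 2.35e-05), or 5.62-fold and 4.10-fold differences of means. Both values that rest on the wild type TSA libraries moved without replicate 2 of that group, to 5.19 for TKO against wild type and 1.76 for TSA, and without its replicate 1 they were 3.97 and 2.97. TKO with TSA stood 123-fold above wild type with DMSO. The wild type DMSO libraries held only 6 and 9 counts of Asz1, so folds against that group rest on few reads. On the log scale the TSA effect in TKO differed from that in wild type by -0.44, with a 95% interval of -1.63 to 0.75 and a sign that turned without wild type TSA replicate 2 (0.27). The Asz1 promoter window (RefSeq, GRCm38.p6, chr6:18109012-18109311, minus strand) is shown because this gene had the largest genotype difference of the 10, with its 17 CpG in capitals.
Asz1: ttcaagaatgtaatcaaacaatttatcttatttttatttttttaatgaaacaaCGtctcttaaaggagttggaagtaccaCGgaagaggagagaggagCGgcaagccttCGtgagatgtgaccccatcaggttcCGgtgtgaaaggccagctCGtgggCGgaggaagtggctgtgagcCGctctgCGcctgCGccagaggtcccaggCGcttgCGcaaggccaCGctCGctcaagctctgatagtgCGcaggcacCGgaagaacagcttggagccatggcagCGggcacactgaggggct
All promoter windows of the table hold a median of 7 CpG.

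Mael (chromosome 1, 166201385 to 166238744, minus strand, 12 exons) encodes Maelstrom, a germ granule protein needed for transposon silencing. The level of Mael in DMSO was 21.3 and 24.9 normalised CPM in wild type and 30.2 and 27.8 in TKO, and with TSA 64.3 and 74.2 in wild type and 73.8 and 58.7 in TKO. The TSA libraries of either genotype were above all DMSO libraries, and the genotypes overlapped in TSA. TSA gave a log2 fold change of 1.59 ± 0.14 (SE) in wild type and 1.19 ± 0.14 in TKO (adjusted p 2.13e-05 and 4.25e-05), and both calls held under all 15 alternatives run for each. For Mael, TKO against wild type gave 0.33 ± 0.15 in DMSO (adjusted p 0.137) and -0.06 ± 0.13 in TSA, with 95% intervals of 0.01 to 0.66 and -0.36 to 0.23. The interval in DMSO is not adjusted for the number of genes tested, and the value in TSA changed sign without wild type TSA replicate 2 (0.043) or TKO TSA replicate 2 (0.095).

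**Figure D2:**
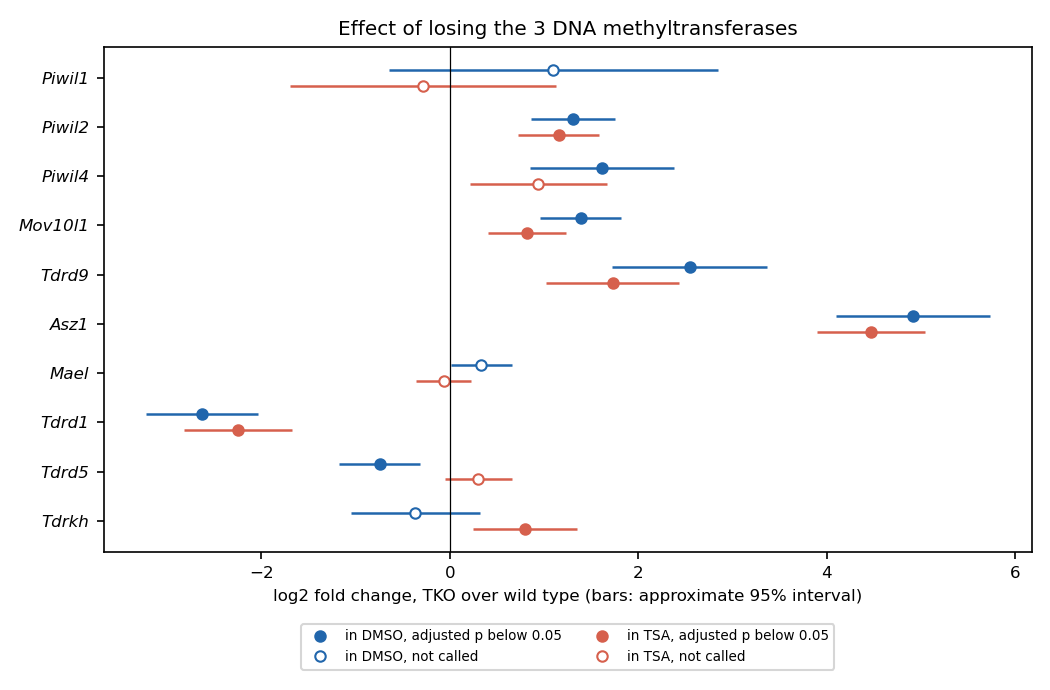
Log2 fold change of TKO over wild type for each of the 10 genes, in DMSO and in TSA; bars are approximate 95% intervals and filled points passed an adjusted p of 0.05. Asz1 lies farthest to the right in both treatments (4.91 and 4.47), and Tdrd1 farthest to the left (-2.63 and -2.24).

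The 3 genes of the tudor family without a helicase domain differed from each other. Tdrd1 was lower in TKO and showed no called response to TSA, while Tdrd5 and Tdrkh rose with TSA in both genotypes. Tdrd1 (chromosome 19, 56826209 to 56870012, plus strand, 27 exons) encodes a partner of MILI in the granules between mitochondria. Tdrd1 stood in DMSO at 13.1 and 10.0 normalised CPM in wild type and at 1.98 and 1.75 in TKO, and with TSA at 12.3 and 8.69 in wild type and at 2.43 and 2.01 in TKO. Every TKO library was below every wild type library, and the treatments overlapped within wild type. TKO against wild type gave a log2 fold change of -2.63 ± 0.27 (SE) in DMSO and -2.24 ± 0.26 in TSA (adjusted p 0.000123 and 0.000317), so means were 6.19-fold and 4.73-fold higher in wild type. TSA gave -0.14 ± 0.22 in wild type and 0.25 ± 0.31 in TKO, and the sign of the first turned with total counts (0.066) and upper quartile scaling (0.015). Tdrd1 was the only gene of the 10 that was called lower in TKO in both treatments.

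Tdrd5 (chromosome 1, 156255296 to 156303348, minus strand, 18 exons) encodes a tudor protein of male germ cells that is needed for transposon silencing. The level of Tdrd5 in DMSO was 11.5 and 8.34 normalised CPM in wild type and 6.15 and 5.75 in TKO, and with TSA 22.2 and 23.8 in wild type and 30.9 and 26.0 in TKO. The groups did not overlap, and TKO was the lower genotype in DMSO and the higher in TSA. TSA gave a log2 fold change of 1.21 ± 0.18 (SE) in wild type and 2.25 ± 0.18 in TKO (adjusted p 0.000260 and 5.18e-06). TKO against wild type gave -0.74 ± 0.20 in DMSO (adjusted p 0.0209) and 0.30 ± 0.16 in TSA (adjusted p 0.222). The call in DMSO was lost without wild type DMSO replicate 1 (-0.50, adjusted p 0.156), TKO DMSO replicate 1 (-0.79, adjusted p 0.0786) or TKO DMSO replicate 2 (-0.69, adjusted p 0.125).

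Tdrkh (chromosome 3, 94413318 to 94431499, plus strand, 13 exons) encodes a tudor protein of the mitochondrial surface that takes part in the trimming of piRNAs. Tdrkh stood in DMSO at 4.14 and 5.18 normalised CPM in wild type and at 3.42 and 3.78 in TKO, and with TSA at 8.30 and 11.7 in wild type and at 13.1 and 21.5 in TKO. The libraries of no 2 groups overlapped. TSA gave a log2 fold change of 1.10 ± 0.28 (SE) in wild type and 2.26 ± 0.28 in TKO (adjusted p 0.00715 and 5.95e-05). The first was 0.94 without wild type DMSO replicate 1 (adjusted p 0.0533) and 0.83 without wild type TSA replicate 2 (adjusted p 0.0582). TKO against wild type was not called in DMSO (-0.37 ± 0.31, adjusted p 0.449) and narrowly called in TSA (0.80 ± 0.25, adjusted p 0.0480). The narrow call was lost in 8 of 15 alternatives, among them those without wild type TSA replicate 1 (0.57, adjusted p 0.311), TKO TSA replicate 2 (0.39, adjusted p 0.400), TKO DMSO replicate 1 (adjusted p 0.0683) and TKO DMSO replicate 2 (adjusted p 0.0670).

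The promoter windows of Tdrd1 and Tdrd5 (RefSeq, GRCm38.p6) are shown beside these results because the genes were the only ones of the 10 that were called lower in TKO in DMSO. The Tdrd1 window (chr19:56825959-56826258, plus strand) has its E-box in capitals, and the Tdrd5 window (chr1:156303299-156303598, minus strand) has its CpG in capitals.
Tdrd1: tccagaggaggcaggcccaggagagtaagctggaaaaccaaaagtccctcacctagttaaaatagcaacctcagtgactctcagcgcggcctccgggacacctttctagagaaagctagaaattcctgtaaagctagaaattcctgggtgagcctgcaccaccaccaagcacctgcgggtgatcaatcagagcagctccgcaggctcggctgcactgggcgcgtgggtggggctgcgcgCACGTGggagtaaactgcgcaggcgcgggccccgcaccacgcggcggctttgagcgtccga
Tdrd5: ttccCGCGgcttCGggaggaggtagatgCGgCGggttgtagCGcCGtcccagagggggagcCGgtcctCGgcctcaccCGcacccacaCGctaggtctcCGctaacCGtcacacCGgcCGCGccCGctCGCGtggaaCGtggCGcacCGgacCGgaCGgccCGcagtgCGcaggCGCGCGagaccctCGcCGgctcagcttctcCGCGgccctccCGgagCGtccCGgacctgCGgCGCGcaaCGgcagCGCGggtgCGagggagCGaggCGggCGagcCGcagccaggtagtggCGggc
With 48 CpG in 300 bases the Tdrd5 window is the densest of the 9 found, and the Tdrd1 window has 20.

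Whether the TSA effect depended on the genotype was tested directly for each gene. None of the 10 passed in edgeR after adjustment, 2 had an unadjusted p under 0.05, DESeq2 called 1, and 1.35% of all genes were called by edgeR, 0.879% as more positive and 0.468% as more negative in TKO. The 2 were Tdrd5, with a TSA effect larger in TKO by 1.04 on the log2 scale (95% interval 0.49 to 1.60, edgeR adjusted p 0.0785), and Tdrkh, larger by 1.16 (0.29 to 2.04, edgeR adjusted p 0.203). DESeq2 called Tdrd5 (adjusted p 0.0490), as did edgeR without the filter on low counts (adjusted p 0.0369) and without wild type DMSO replicate 2 (1.25, adjusted p 0.0243). With the replicate number as a block both were called (edgeR adjusted p 0.0282 for Tdrd5 and 0.0400 for Tdrkh). Of the other 8 genes, Piwil1 had the largest difference, -1.38 (95% interval -3.63 to 0.87), which was called without wild type DMSO replicate 2 (adjusted p 0.0249), where the remaining library has no count. Mov10l1 had a difference of -0.57 (95% interval -1.16 to 0.02), Mael -0.40 (-0.83 to 0.04) and Piwil2 -0.15 (-0.77 to 0.47). For these 8 the intervals held 0 and reached a log2 difference of 0.77 or more on 1 side, so differences of that size were not excluded.

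**Figure D3:**
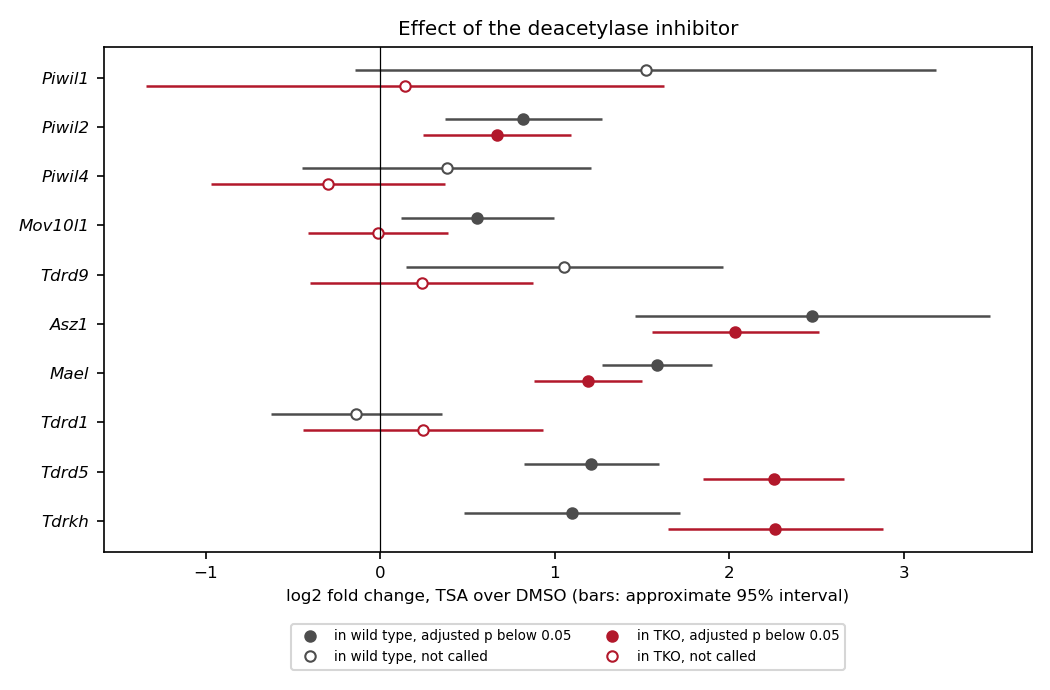
Log2 fold change of TSA over DMSO for each of the 10 genes in wild type (grey) and TKO (red); bars are approximate 95% intervals and filled points passed an adjusted p of 0.05. Tdrd5 and Tdrkh lie farther to the right in TKO (2.25 and 2.26) than in wild type (1.21 and 1.10), and Tdrd1 lies near 0 in both.

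The promoters were described from the RefSeq windows of 300 bases, which were found for 9 of the 10 genes. Counting the first window of each gene, CpG numbered 10 in Tdrd9, 11 in Piwil4, 17 in Asz1, 18 in Piwil1, 20 in Mov10l1 and Tdrd1, 24 in Mael, 25 in Tdrkh and 48 in Tdrd5. All 9 were above the median of 7 over 32851 windows, and 48.65% of all windows were above it. The 9 are each counted by the window nearest the deposited gene start, whereas the 32851 windows cover 27025 genes, some with further windows. Of the genes called higher in TKO in DMSO, Tdrd9 had 10 CpG, Piwil4 11, Asz1 17 and Mov10l1 20, and Piwil2 had no window. Of those called lower, Tdrd1 had 20 and Tdrd5 48. Those not called had 18 (Piwil1), 24 (Mael) and 25 (Tdrkh). A relation between CpG number and the genotype difference was not tested. The table gives further windows for Piwil4 and Tdrd1, and the window of Piwil4 that lies 22346 bases from the deposited gene start holds 0 CpG.

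Of 8 motifs searched on both strands, the E-box CACGTG stood in 5 of the 9 first windows (Piwil1, Mov10l1, Tdrd9, Mael and Tdrd1), against 7.15% of all windows and 10.9% of the 13946 windows with 10 to 48 CpG. The 2 matches in Tdrd9 lie 165 and 95 bases before the start site, that in Mov10l1 246 bases and that in Tdrd1 11 bases before it. Genes with the match include 2 that were higher in TKO in DMSO (Mov10l1 and Tdrd9), 1 that was lower (Tdrd1) and 2 that were not called (Piwil1 and Mael). The NRF1 core GCATGCG was in 2 windows (Mov10l1 and Tdrd9; 3.58% of all windows and 6.98% of those with 10 to 48 CpG), where the 2 matches of Mov10l1 on opposite strands overlap. The SP1 core GGGCGG was in 5 windows (35.7% of all and 69.1% of those with 10 to 48 CpG), the E2F core GCGGGA in 2 (20.0% and 39.8%) and the GABPA core CCGGAAG in Asz1 alone (8.86% and 17.4%), and both E2F matches in Mael overlap an SP1 match. The YY1 core AAGATGG and the MYB palindrome AACNGTT were in none (6.34% and 4.45% of all), and the shorter MYB core AACNG, which is contained in it, was in all 9 (80.3%). These are matches of letters and not measured binding.

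**Figure D4:**
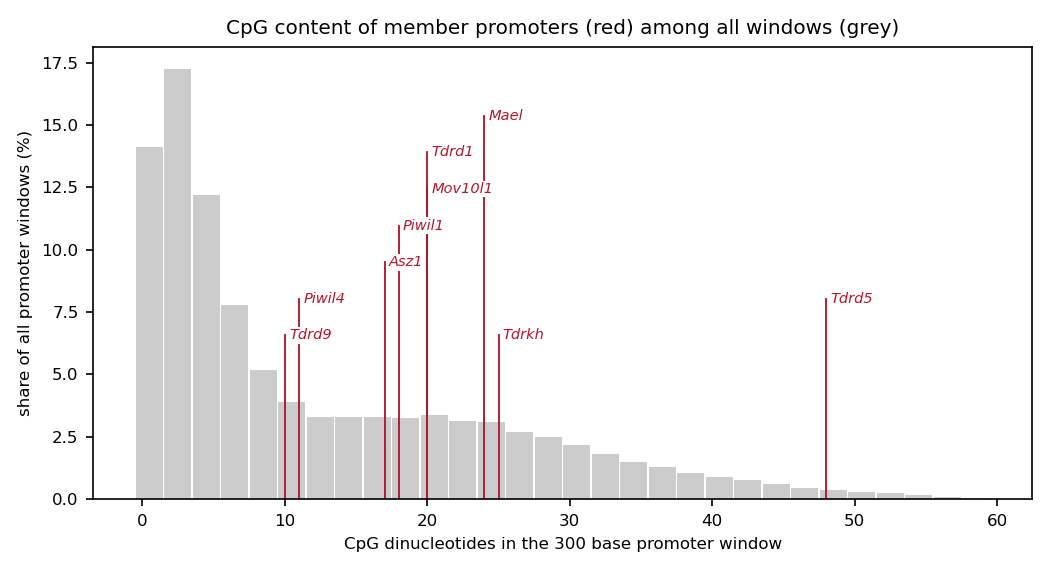
Number of CpG in the promoter windows of 300 bases for all 32851 windows (grey bars, share in percent) and for 9 of the 10 genes (red lines; their heights only separate the names). The genes run from 10 CpG in Tdrd9 to 48 in Tdrd5, all above the median of 7.

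Other genes of the pathway were followed by a list of 28, of which 25 were found by symbol in the table and 24 passed the filter. Spocd1, Gm14490 and Btbd18 were not found under these symbols, so 3 of the 5 listed nuclear silencing genes were available. In TKO against wild type in DMSO, 9 of the 24 were higher, none lower and 15 not called, against 9.62% of all genes higher and 10.7% lower, with a median log2 fold change of 0.38. By role, 2 of 9 germ granule and tudor genes, 2 of 6 biogenesis genes, 1 of 4 chaperone and arginine methylation genes, 3 of 3 nuclear silencing genes and 1 of 2 regulators were higher. Fkbp6, a co-chaperone needed for piRNA loading, rose from a mean of 3.11 to 55.9 normalised CPM, an 18.0-fold difference (log2 fold change 4.19 ± 0.24 SE, adjusted p 4.14e-06). Gpat2, a mitochondrial protein of piRNA biogenesis, rose from 5.89 to 41.2 (2.82 ± 0.29, adjusted p 0.000123). Gtsf1, a small zinc finger protein that assists PIWI proteins, rose from 0.995 to 3.58 (1.85 ± 0.42, adjusted p 0.0103). The others named by size were Stk31 (log2 fold change 1.42), Dnmt3l (1.07), a cofactor of the de novo methyltransferases, and Morc1 (0.89), a nuclear silencing factor. In TSA, 7 of the 24 were higher in TKO, 1 was lower and 16 were not called, against 10% of all genes higher and 8.38% lower. The lower gene was Ddx4, the germ granule helicase also called Vasa (-1.34 ± 0.19, adjusted p 0.00110), and Tex19.1, a regulator of transposons in germ cells, was higher (1.37 ± 0.16, adjusted p 0.000288).

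With TSA in wild type, 10 of the 24 other genes were higher, 4 lower and 10 not called, against 27% of all genes higher and 25.9% lower. In TKO 10 were higher, 8 lower and 6 not called, against 30.8% and 27.9%. The chaperone and arginine methylation genes showed no called increase, with 2 of 4 lower in wild type and 3 of 4 lower in TKO. Tex19.1 rose from 165 to 669 normalised CPM in wild type and from 283 to 1733 in TKO (log2 fold change 2.02 and 2.61, adjusted p 1.25e-05 and 1.59e-06). Gtsf1 (2.36 and 2.43), Tex15 (2.27 and 2.20), a factor of piRNA-directed DNA methylation, and Tdrd7 (1.71 and 1.61), a tudor protein of germ granules, also rose in both genotypes. Pnldc1, the nuclease that trims piRNA ends, fell in both (-1.27 in wild type and -1.26 in TKO). Gpat2 rose in wild type by 1.56 and in TKO by 0.96, and Tdrd6 in TKO by 1.70. Fkbp6 fell with TSA in TKO, from 55.9 to 26.2 normalised CPM (-1.09 ± 0.19, adjusted p 0.000587), where Asz1 rose. With both changes together 12 were higher and 4 lower, against 31.7% of all genes higher and 30.2% lower, and the number called is near the background. The largest increases were those of Gtsf1 (4.28), Gpat2 (3.77), Tex19.1 (3.39) and Fkbp6 (3.10). The interaction called 1 of the 24, Stk31, a kinase with a tudor domain (-1.58 ± 0.29, adjusted p 0.0324).

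**Figure D5:**
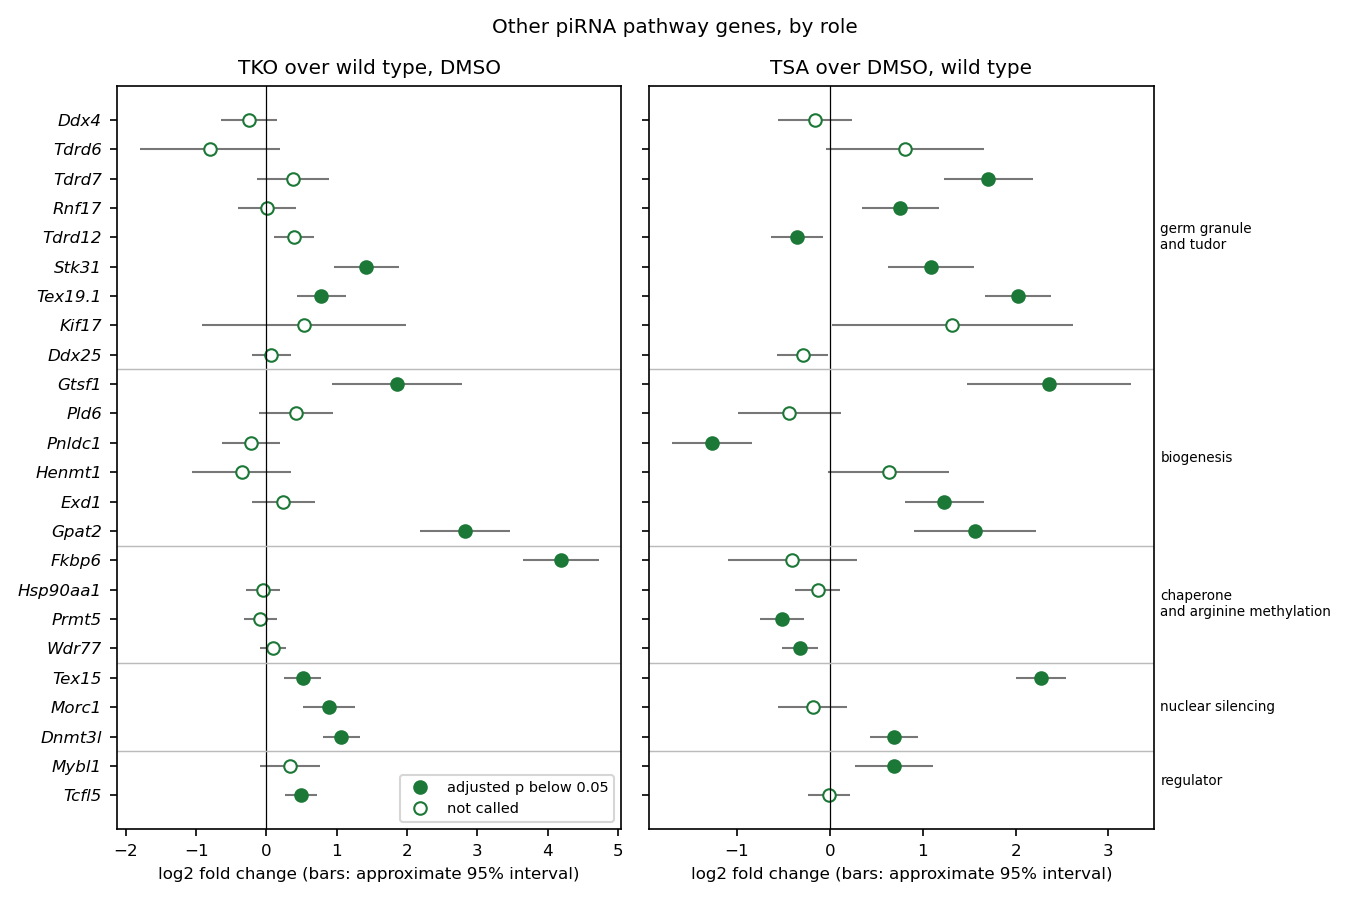
Log2 fold changes of the other tested piRNA pathway genes, grouped by role, for TKO over wild type in DMSO and for TSA over DMSO in wild type; bars are approximate 95% intervals, filled points passed an adjusted p of 0.05 and the x axes differ between panels. In DMSO Fkbp6 (4.19) and Gpat2 (2.82) lie farthest to the right, and with TSA Gtsf1 (2.36) and Tex15 (2.27) lie farthest to the right and Pnldc1 (-1.27) farthest to the left.

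Genes listed as markers of other cells moved between the groups too. The 7 listed for primordial germ cells were above 3 counts in every group, wild type DMSO included. Whether such cells were present was not tested. In DMSO the summed level of 7 primordial germ cell markers was 163 to 188 normalised CPM in wild type and 221 to 262 in TKO, and with TSA it was 302 to 327 in wild type and 443 to 492 in TKO. In TKO against wild type in DMSO 3 of the 7 were higher (Prdm1, Prdm14 and Kit) and none lower. With TSA in wild type 4 were higher (Nanos3, Tfap2c, Dppa3 and Kit) and 3 lower (Prdm1, Dnd1 and Prdm14). The 8 spermatogonial markers summed to 28.5 to 38.6, 65.0 to 88.3, 65.9 to 98.6 and 149 to 170 in the same order, with Nanos2 at 0 counts in every library but wild type TSA replicate 2, where it had 4. Of the 6 that were tested, Sohlh2 and Id4 were higher and Gfra1 lower in TKO in DMSO, and with TSA in wild type Sohlh2, Stra8, Id4 and Ret were higher and Gfra1 lower. Sohlh2 made up much of the sum, at a mean of 12.5 in wild type DMSO and 95.2 in TKO TSA, where Gfra1 went from 9.16 to 0.739. The 8 spermatocyte and spermatid markers summed to 1.28 to 1.54, 2.04 to 2.26, 2.93 to 4.21 and 4.87 to 5.15 in the same order. In each group 6 or 7 of them were at 3 counts or fewer. Prdm9, the only tested 1, was called higher under TSA in both genotypes (log2 fold change 1.39 in wild type and 1.14 in TKO). Its difference between genotypes was not called in either treatment. The 6 oocyte markers summed to 8.27 to 11.6, 11.1 to 15.6, 8.85 to 9.58 and 6.29 to 9.54.

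Among markers outside the germline, 4 primitive endoderm genes (Gata4, Gata6, Sox17 and Sox7) summed to 4.64 to 6.89 normalised CPM, 16.7 to 18.5, 8.24 to 9.92 and 23.4 to 25.4 in that order, and all 4 were higher in TKO in DMSO. The 5 mesenchymal or feeder genes summed to 76.7 to 105, 9.24 to 10.6, 79.0 to 87.4 and 26.8 to 39.7. Col1a1, Col1a2, Col3a1 and Acta2 of these were lower in TKO in DMSO, as Tdrd1 was. With TSA in TKO, 4 of the 5 were higher, whereas Tdrd1 was not called. The 9 stem cell markers summed to 3270 to 3591, 4136 to 4702, 1831 to 2076 and 2245 to 2457, lower with TSA in either genotype. The part of these shifts in the levels of the 10 genes was not tested.

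The median profile of the 10 genes over the 4 groups, centred on the log2 scale, was lowest in wild type DMSO (-0.93), followed by TSA in wild type (0.02), TKO DMSO (0.20) and TSA in TKO (0.72). The nearest profiles were sought among tested genes other than the 10 with a mean of at least 1 normalised CPM over the 8 libraries. They were those of Snx22 (0.0340), Syce3 (0.0549), Sdk2 (0.0567), Arhgef33 (0.0651) and Abca13 (0.0656). The distance is the root mean square difference over the 4 group values. Snx22, a sorting nexin, was at a mean of 1.20, 2.28, 2.64 and 4.01 normalised CPM, and Syce3, a component of the synaptonemal complex of meiosis, at 1.41, 2.76, 3.07 and 4.23, with the groups in the same order as above. The 10 genes themselves lay from 0.182 (Piwil2) to 1.96 (Asz1) from their own median. Tdrd1, at 1.68, was higher in both wild type groups than in both TKO groups, unlike the median profile. These distances cannot be set against those above, which belong to genes picked as the nearest of all candidates.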

How the data were processed

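The 8 RNA-seq libraries of the series (4 groups of 2, grouped by the labels) were used. Per the labels' protocols, RNA was depleted of ribosomal RNA and made into directional libraries. The authors deposited raw counts per gene with exon positions and an exon length in bases. The submitters' processing notes name TopHat2 2.0.13, featureCounts 1.4.5-p1, edgeR 3.22.3 and the build mm10. The strand setting, annotation and treatment of multi-mapping reads are not given in the sources used here.

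Counts were fitted with edgeR 4.0.16 in R 4.3.3: filterByExpr (minimum count 10), TMM factors, a quasi-likelihood model with 1 mean per group over 8 libraries (4 residual degrees of freedom), two-sided tests and Benjamini-Hochberg adjustment over 15822 genes. An exact permutation test of 2 against 2 libraries cannot go below p = 0.333. Intervals are approximate 95% intervals, unadjusted. The fit was tested on simulated data, drawn as independent libraries with the spread that the fit itself had estimated. Such data cannot show whether the real libraries of a group are independent. Alternatives were other scalings, no filter, DESeq2 1.42.0, a replicate block, only the groups compared, and leaving out each library. Replicates differed beyond sampling noise (chi-square per degree of freedom 5.17 to 11.7) and each was counted. Floors cover counting error only.

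The 10 genes and the lists were chosen with earlier results of these data known. Named genes are all 10, the targeted genes, the 5 nearest profiles, and markers beside a result. Of other pathway genes, up to 6 called per comparison are named, by largest log2 fold change and a mean of at least 1 CPM. For TSA in TKO, Gpat2 and Fkbp6 are given besides, though outside the 6 largest changes there. Exons of the 10 genes overlap no other gene's exons in the deposited table.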

Additional observations from a re-analysis of the deposited data

How the results depend on the processing

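Across the alternatives, 829 values for the 10 genes kept their direction and their side of the threshold, 28 lost a call, 19 gained one and 14 changed sign. Leaving out 1 library each time gave 3 to 7 of the 10 genes called for TKO in TSA (6 with all libraries), 3 to 8 for TSA in wild type (6) and 0 to 2 for the interaction (0). For all genes it gave 1458 to 3331 calls for TKO in DMSO (3220 with all), 941 to 3443 for TKO in TSA (2910) and 10 to 410 for the interaction (213). The interaction called 1 of the 10 genes by DESeq2, 1 without the filter and 2 with the replicate block, and 387, 488 and 633 of all genes. Same-numbered libraries deviated together at an r of 0.0673 to 0.325 across genes, with nothing in the labels to pair them. With the replicate block the 10 genes gave 7 calls for the genotype in either treatment, 7 for TSA in wild type cells, 5 in TKO cells and 9 for both changes, where the same fits called 4217, 4097, 9256, 10039 and 10413 of all genes. Sign changes were confined to values that were not called. With upper quartile and total count scaling Tdrd1 for TSA in wild type became 0.015 and 0.066, and Mov10l1 for TSA in TKO 0.062 and 0.13. Leaving out 1 library gave -0.24 to 0.095 for Mael for TKO in TSA, -0.42 to 0.090 for Tdrd1 and -0.11 to 0.76 for Piwil4 for TSA in wild type, -0.19 to 0.14 for Mov10l1 and -0.22 to 0.60 for Piwil1 for TSA in TKO, and -0.44 to 0.20 for Piwil2 and -0.94 to 0.27 for Asz1 for the interaction. The causes were not tested. Depth limits Piwil1, and Asz1 and Tdrd9 in wild type DMSO, where counts are few.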
